A study of Mus musculus with 6 samples.

Results

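The platelet-derived growth factor (PDGF) and vascular endothelial growth factor (VEGF) genes were followed in podoplanin-positive cancer-associated fibroblasts (pCAFs) of mouse breast tumours. The set was given as a list of ligand and receptor symbols, and all 10 listed genes were found among the 12235 genes of the table: the PDGF ligand genes Pdgfa, Pdgfc and Pdgfd, the PDGF receptor genes Pdgfra and Pdgfrb, the VEGF ligand genes Vegfa, Vegfb and Vegfc, and the VEGF receptor genes Kdr and Flt4. The 6 libraries came from 4T1 tumours, grown after 100000 cells of this BALB/c mammary carcinoma line were placed in the mammary fat pad of females of that strain aged 8 weeks, and taken at a size of 1 cm. The labels name the injected line once as 4T1-GFP and once as 4T1-luc. Viable cells lacking Ter119, CD45 and EpCAM and carrying PDPN were sorted by surface Ly6C, into 3 Ly6C+ and 3 Ly6C- libraries. The tumour, strain and other gates were shared by both groups, so Ly6C is the difference that the labels give. The labels do not say whether replicates came from separate mice, and p-values measure the spread between these libraries only.

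Values are normalised counts, which are reads per gene divided by 1 size factor per library, from libraries of mRNA 3′ ends. The Ly6C+ libraries held 2150531 to 2818269 reads and the Ly6C- libraries 1176909 to 1721480. Ly6c1 stood at 2316 to 3849 in Ly6C+ and 65.6 to 88.6 in Ly6C- libraries, as the gate requires. Pdpn, the gene of the positive gate marker shared by both groups, was not alike in them. It stood at 181 to 223 in Ly6C+ and 66.9 to 143 in Ly6C- libraries, 2.19-fold higher in Ly6C+ pCAFs (adjusted p by limma = 0.00915). The fibroblast genes Col1a2 and Col3a1 were at 12818 or above in every library, while Epcam stayed at or below 2.95 and Ptprc, the CD45 gene, at or below 4.88. The leukocyte marker list (10 of 12 genes measured) summed to 212 to 1170 in Ly6C+ and 55.3 to 130 in Ly6C- libraries, where Ly6C+ replicate 1 held the top value with S100a9 at 478, and Cd3e was at 88.7 to 165 against 10.5 to 19.7.

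PDGF ligands are dimeric growth factors that act on mesenchymal cells through a pair of receptor tyrosine kinases. PDGF-AA and PDGF-CC signal mainly through the alpha receptor, a general fibroblast marker, and PDGF-BB and PDGF-DD mainly through the beta receptor, which fibroblasts share with pericytes and smooth muscle. VEGF-A drives blood vessel growth through the endothelial receptor encoded by Kdr, whereas VEGF-C and VEGF-D act on lymphatic vessels through the receptor encoded by Flt4. VEGF-B and placental growth factor bind the receptor encoded by Flt1.

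The promoters of Pdgfra, Pdgfa, Vegfa and Kdr are shown as those of a receptor and a ligand gene of each family that differed between the groups, and that of Vegfd as the VEGF ligand gene, outside the list of 10, with the largest difference. Each window runs from 250 bases before to 50 bases after a RefSeq transcript start (GRCm38.p6, the mm10 assembly, from C57BL/6J and not from BALB/c mice), 5′ to 3′ on the strand of the gene. Capitals mark matches, on either strand, to the letters ACGTG (core of the hypoxia-inducible factor site), TGTGGT (RUNX), GGGCGG (SP1) and GGAAGT (ETS).
Pdgfra, chr5:75152001-75152300, plus strand: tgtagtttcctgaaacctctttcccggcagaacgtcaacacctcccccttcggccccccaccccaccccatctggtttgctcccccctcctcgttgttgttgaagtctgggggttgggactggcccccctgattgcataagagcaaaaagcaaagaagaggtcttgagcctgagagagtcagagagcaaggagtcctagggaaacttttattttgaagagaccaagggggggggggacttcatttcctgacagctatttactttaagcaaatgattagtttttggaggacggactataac
Pdgfa, chr5:138994895-138995194, minus strand: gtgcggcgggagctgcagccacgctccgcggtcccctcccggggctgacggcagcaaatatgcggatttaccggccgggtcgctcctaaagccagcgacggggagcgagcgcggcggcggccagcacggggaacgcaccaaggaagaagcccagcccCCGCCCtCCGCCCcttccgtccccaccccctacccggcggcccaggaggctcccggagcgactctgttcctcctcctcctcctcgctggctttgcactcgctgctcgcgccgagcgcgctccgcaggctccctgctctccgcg
Vegfa, chr17:46032328-46032627, minus strand: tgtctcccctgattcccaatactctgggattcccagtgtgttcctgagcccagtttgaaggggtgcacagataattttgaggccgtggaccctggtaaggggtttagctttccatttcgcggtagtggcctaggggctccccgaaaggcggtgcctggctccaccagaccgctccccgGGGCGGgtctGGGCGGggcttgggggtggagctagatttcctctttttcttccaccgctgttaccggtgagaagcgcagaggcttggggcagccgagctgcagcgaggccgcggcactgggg
Kdr, chr5:75978406-75978705, minus strand: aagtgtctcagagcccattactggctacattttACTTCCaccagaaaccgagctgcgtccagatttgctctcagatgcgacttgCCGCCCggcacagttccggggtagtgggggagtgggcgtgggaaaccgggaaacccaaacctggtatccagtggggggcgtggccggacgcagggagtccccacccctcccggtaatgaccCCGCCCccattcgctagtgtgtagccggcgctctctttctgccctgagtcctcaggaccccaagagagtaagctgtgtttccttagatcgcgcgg
Vegfd, chrX:164373272-164373571, plus strand: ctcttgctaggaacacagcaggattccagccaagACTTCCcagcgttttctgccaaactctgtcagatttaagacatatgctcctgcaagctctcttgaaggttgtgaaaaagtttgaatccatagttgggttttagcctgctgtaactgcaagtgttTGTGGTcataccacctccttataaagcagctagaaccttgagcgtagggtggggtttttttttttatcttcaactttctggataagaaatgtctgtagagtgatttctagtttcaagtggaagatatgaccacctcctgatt
RefSeq gave 11 promoters for 9 of the 10 genes, since Pdgfa and Vegfa have a pair of starts each. The SP1 letters were in 8 of the 11, against 35.7% of all 32851 promoters of the same length, and the 11 had a median GC content of 62.0% against 52.7% over all promoters. Matches to the RUNX letters were found in 0 of the 11 (16.8% of all promoters), to the ETS letters in 3 (23.8%), and to the hypoxia core in 1 (19.6%). That match, at the Vegfa start within the gene (chr17:46025114-46025413), lies outside the Vegfa window printed above. The Vegfd window holds 1 RUNX and 1 ETS match, and the Pdgfra window holds none of the 4 motifs. These matches describe letters, and binding was not measured.

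Among the 10 genes, the PDGF genes that passed the test differed between the groups in both directions. The 3 VEGF genes of the 10 that passed it were all lower in Ly6C+ pCAFs. Outside the 10, Vegfd was called higher in Ly6C+ pCAFs (log2 fold change 4.13) and Pgf lower (-3.23). Pdgfra and the low-level ligand gene Pdgfd were higher in Ly6C+ pCAFs, and Pdgfa, Pdgfrb, Vegfa, Kdr and Flt4 were higher in Ly6C- pCAFs. In limma on log2(value + 1), with p-values adjusted over all 9646 genes tested, 2 of the 10 were called higher and 5 lower in Ly6C+ pCAFs at an adjusted p under 0.05. Of all tested genes 9.41% were called higher and 7.66% lower, 17.1% in either direction. The counts called in the marker lists below stand beside these shares. The calls over all genes were 55.1% higher ones, or 37.4% with libraries set to equal read totals, a scaling that shifted the median over all genes by -0.19 on the log2 scale. The direction of each of the 10 genes was the same under that scaling. For 8 of the 10 genes the values of the groups were apart, as for 33.1% of all tested genes. The median log2 fold change (Ly6C+ minus Ly6C-) was -1.02 over the 10 and -0.00070 over all tested genes. All 10 passed the filter of a mean of at least 5, but Pdgfd and Flt4 did so through the group in which they were high. In sorted bulk samples, fewer cells of a type and less RNA per cell cannot be told apart.

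**Figure D1:**
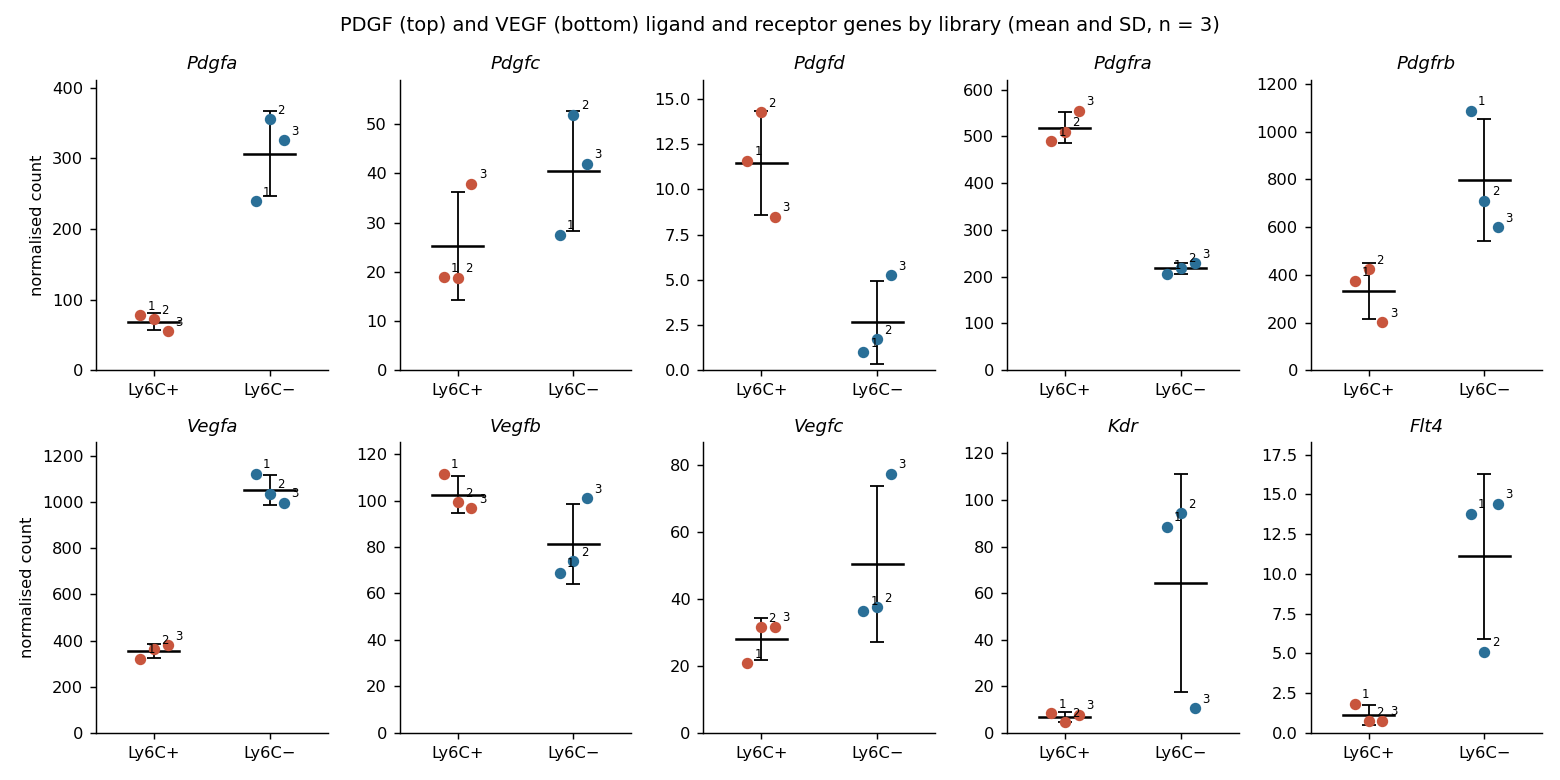
Normalised count (vertical axes, from 0, each gene with its own scale) of the 10 genes in the Ly6C+ (red) and Ly6C- (blue) libraries, with replicate numbers, means and SD. The groups are apart for 8 genes and overlap for Pdgfc and Vegfb, and Ly6C- replicate 3 lies far below the other Ly6C- libraries for Kdr.

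Of the PDGF ligand genes, Pdgfa, which encodes the A chain that signals through the alpha receptor, stood at 78.1, 72.2 and 54.9 in the Ly6C+ libraries and at 239, 356 and 325 in the Ly6C- libraries. The lowest Ly6C- library was 3.06-fold above the highest Ly6C+ library. The group means were 68.4 ± 12.1 and 307 ± 60.4 (SD, n = 3 each), a 4.49-fold excess in the Ly6C- group (log2 fold change -2.14 ± 0.21, SE; adjusted p by limma = 4.46e-05). Pdgfa lies on chromosome 5, 138976014 to 138997370, minus strand, in mm10.

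Pdgfd moved the other way at a level near the limit of these libraries. It encodes a latent ligand whose CUB domain is cut off before it binds the beta receptor. Its values were 11.6, 14.3 and 8.50 in the Ly6C+ libraries and 0.984, 1.70 and 5.24 in the Ly6C- libraries, from 49 and 7 reads in all. The groups did not overlap, and the Ly6C+ mean was 4.33 times the Ly6C- mean (log2 fold change 1.92 ± 0.53, SE; adjusted p by limma = 0.0273). The fold was 8.53 without Ly6C- replicate 3. The call ended without any one of Ly6C+ replicates 1, 2 or 3 or Ly6C- replicates 1 or 2 (adjusted p = 0.101, 0.128, 0.0550, 0.0512 and 0.0844), and with all libraries thinned to 1176909 reads (0.0838). Over the 17 alternatives that gave a value, the adjusted p ran from 0.00517 to 0.128.

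Pdgfc, the other latent ligand, which is known to be activated by the protease tPA and to signal through the alpha receptor, measured 18.9, 18.8 and 37.9 in the Ly6C+ libraries and 27.6, 51.9 and 42.0 in the Ly6C- libraries. The groups overlapped through Ly6C+ replicate 3 and Ly6C- replicate 1. The difference did not pass the test (log2 fold change -0.69, 95% interval -1.43 to 0.04; adjusted p by limma = 0.202). Pdgfb, the ligand gene that endothelial cells use to recruit pericytes, had 3 reads in Ly6C+ and 5 in Ly6C- libraries and was too low to test.

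Of the PDGF receptor genes, Pdgfra stood at 490.4, 510.4 and 555 in the Ly6C+ libraries and at 206, 219 and 229 in the Ly6C- libraries. Replicates were close in both groups, with means of 519 ± 33.0 and 218 ± 11.9 (SD). Its Ly6C+ mean was 2.38 times the Ly6C- mean (log2 fold change 1.24 ± 0.15, SE; adjusted p by limma = 0.000192). Some other fibroblast markers were also higher in Ly6C+ pCAFs, and some were not. Of 8 such genes, all tested, 4 were called higher, 0 lower and 4 not called, and they summed to 67178 to 76152 in Ly6C+ and 45672 to 60185 in Ly6C- libraries. The called genes were the matrix genes Dcn (3.99-fold), Lum (5.24-fold) and Col3a1 (1.95-fold), and S100a4 (3.92-fold). Those not called were Col1a2 (1.01-fold), Fap (0.98-fold), Col1a1 (0.94-fold) and Thy1 (0.81-fold), as Ly6C+ over Ly6C- means. Their part in the Pdgfra difference was not tested. Pdgfra lies on chromosome 5, 75152292 to 75198215, plus strand. Antisense genes overlap Pdgfra, Pdgfa and Pdgfc in the annotation. The protein-coding gene Ddi1, which was not measured, overlaps Pdgfd on the opposite strand over 7114 bases. The handling of strands was not given in the sources used here.

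Pdgfrb, on chromosome 18, measured 374, 424 and 202 in the Ly6C+ libraries and 1088, 710.3 and 599 in the Ly6C- libraries. The groups were apart by 1.41-fold at their nearest values, and each group spread more widely than for Pdgfra. The means were 333 ± 117 and 799 ± 256, a 2.398-fold excess in the Ly6C- group (log2 fold change -1.28 ± 0.29, SE; adjusted p by limma = 0.0106). Markers of pericytes and smooth muscle went both ways. Of this list, 12 of 12 genes were measured and 9 tested, of which 5 were lower and 2 higher in Ly6C+ pCAFs, and the list summed to 519 to 617 in Ly6C+ and 884 to 1379 in Ly6C- libraries. Des encodes the muscle intermediate filament desmin and was the top gene of that list in Ly6C- replicate 1. It stood at 684, 322 and 76.0 in the Ly6C- libraries, the same order as Pdgfrb. Cspg4, the NG2 gene, was also called lower, at 25.01 to 28.6 in Ly6C+ libraries. In Ly6C- replicates 1, 2 and 3 Cspg4 stood at 324, 378 and 400, the reverse order. The others called lower were Myh11 (0.203 ± 0.352 in Ly6C+ and 25.3 ± 4.21 in Ly6C- libraries), Mcam (1.16 ± 1.13 and 12.3 ± 0.724) and Notch3 (15.3 ± 4.49 and 43.0 ± 9.26). Myh11 and Mcam passed the filter through the Ly6C- group. Ndufa4l2 was at 105 to 200.1 in Ly6C+ and 183 to 267 in Ly6C- libraries, with overlap. The 2 called higher, opposite to Pdgfrb, were Vtn, a pericyte marker that encodes vitronectin (193 ± 16.9 in Ly6C+ and 8.78 ± 4.25 in Ly6C- libraries, 21.9-fold), and the potassium channel gene Kcnj8 (118 ± 17.0 and 30.1 ± 10.2, 3.92-fold). Higd1b was at 0 in all 6 libraries and Rgs5 at or below 5.24. The part of these cells in the Pdgfrb difference was not tested.

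The opposite directions of the receptor genes gave a shift in their ratio that no size factor can move, apart from the added 1. The log2 ratio of Pdgfra to Pdgfrb was 0.39, 0.27 and 1.46 in the Ly6C+ libraries and -2.397, -1.69 and -1.38 in the Ly6C- libraries. The groups did not overlap, and the ratio was 5.76-fold higher in Ly6C+ pCAFs. With 3 libraries a group a two-sided exact permutation test cannot go below p = 0.1, the value found here (p = 0.12 adjusted over the 6 ratios examined). The ratio of Pdgfa to Pdgfc was 2.73-fold lower and that of Pdgfd to Pdgfc 6.14-fold higher in Ly6C+ pCAFs, each without overlap and each at exact p = 0.1.

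**Figure D2:**
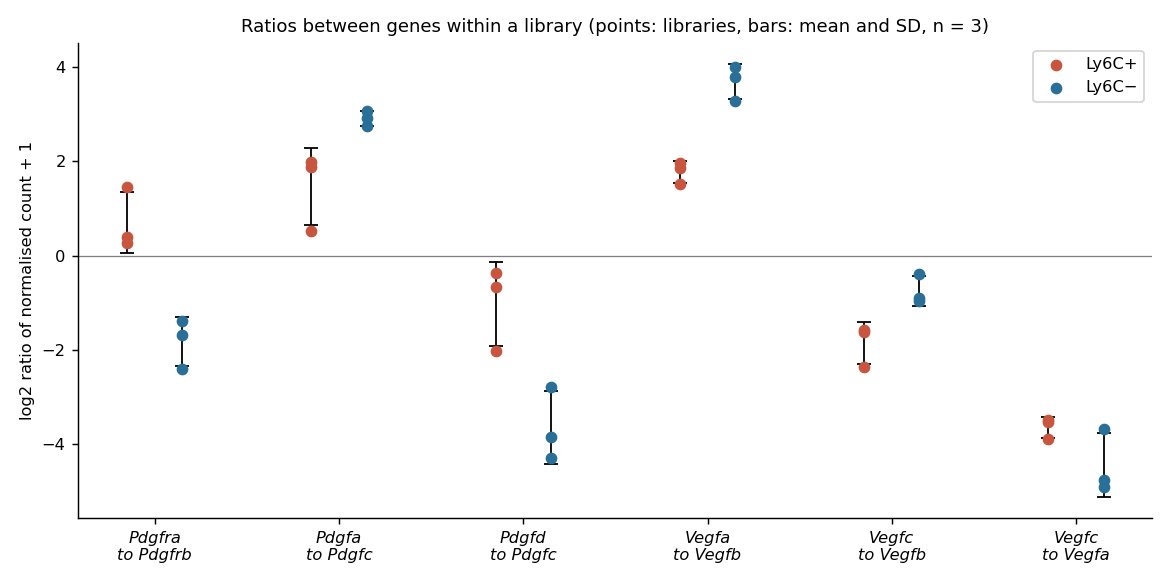
Log2 ratio of normalised counts + 1 between genes of the same library (vertical axis) for 6 gene pairs, with Ly6C+ libraries in red, Ly6C- libraries in blue, and bars for mean and SD. The Pdgfra to Pdgfrb ratio is above 0 in the 3 Ly6C+ and below 0 in the 3 Ly6C- libraries, and only Vegfc to Vegfa overlaps between the groups.

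Of the VEGF ligand genes, Vegfa stood at 322, 363 and 379 in the Ly6C+ libraries and at 1123, 1035 and 996 in the Ly6C- libraries. The nearest values of the groups were 2.63-fold apart. The means were 355 ± 29.5 and 1052 ± 64.8, a 2.96-fold excess in the Ly6C- group (log2 fold change -1.57 ± 0.15, SE; adjusted p by limma = 4.07e-05). Vegfa lies on chromosome 17, 46016993 to 46032369, minus strand. Markers of epithelium and of 4T1 cells (10 of 10 measured) summed to 18.3 to 60.3 in Ly6C+ and to 406, 217 and 110.1 in the Ly6C- libraries, with Epcam at 0 in Ly6C- replicate 2. In the Ly6C- libraries this sum ran from 110.1 to 406 and Vegfa from 996 to 1123. Vegfa and the sum had the same order over these libraries. Of the keratin genes in the list, Krt18, Krt8 and Krt7 were in that order, and Krt19 and Krt14 were not. Cldn3, Cldn4, Cldn7 and Cdh1, too low to test, were in it as well, and Epcam was not. The part of these cells in the Vegfa difference was not tested.

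Vegfb, a ligand of the Flt1 receptor, measured 112, 99.2 and 96.6 in the Ly6C+ libraries and 68.9, 74.0 and 101 in the Ly6C- libraries. The groups overlapped through Ly6C- replicate 3, and the difference did not pass the test (log2 fold change 0.35, 95% interval -0.10 to 0.79; adjusted p by limma = 0.297). Vegfc, the lymphatic growth factor gene, measured 20.7, 31.6 and 31.7 in the Ly6C+ libraries and 36.4, 37.4 and 77.4 in the Ly6C- libraries. Its groups did not overlap, but the nearest values were only 1.15-fold apart and the call failed after adjustment (log2 fold change -0.76, 95% interval -1.47 to -0.06; adjusted p by limma = 0.142). Within libraries, the ratio of Vegfa to Vegfb was 3.77-fold lower in Ly6C+ pCAFs (exact permutation p = 0.1), that of Vegfc to Vegfb 2.16-fold lower (p = 0.1), and that of Vegfc to Vegfa 1.75-fold higher with overlap (p = 0.2).

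The VEGF receptor genes were low in Ly6C+ pCAFs. Kdr, the main signalling receptor of blood endothelium, measured 8.54, 4.51 and 7.73 in the Ly6C+ libraries and 88.6, 94.4 and 10.5 in the Ly6C- libraries. Replicates 1 and 2 of the Ly6C- group were far above every other library, while replicate 3 was 1.23-fold above the highest Ly6C+ value. The Ly6C- mean of Kdr was 9.31 times its Ly6C+ mean (log2 fold change -2.58 ± 0.68, SE; adjusted p by limma = 0.0225). Its call ended without any one of Ly6C+ replicates 1, 2 or 3 or Ly6C- replicates 1 or 2 (adjusted p = 0.0669, 0.0807, 0.0559, 0.0528 and 0.112), and over 18 alternatives the adjusted p ran from 2.55e-05 to 0.112.

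Markers of blood endothelium were compared with Kdr, since the gates did not exclude these cells by a marker of their own. Of this list 8 of 16 genes were measured, and they summed to 276 to 338 in Ly6C+ and 262 to 299 in Ly6C- libraries, mostly from Eng and Plvap. The markers Cdh5, Tie1, Emcn, Erg, Vwf, Robo4, Sox17 and Kit were not measured. Of the 5 tested, 2 were called higher in Ly6C+ pCAFs, 2 lower and 1 (Eng) neither. Those called higher, opposite to Kdr, were Plvap, an endothelial diaphragm protein gene (91.6 ± 8.91 in Ly6C+ and 15.8 ± 3.89 in Ly6C- libraries, 5.81-fold), and the angiopoietin receptor gene Tek, whose Ly6C+ values were 25.6, 13.5 and 16.2 and whose Ly6C- values were 0, 0.851 and 2.62. Pecam1, the CD31 gene, was at or below 4.25 in every library, and Cldn5 was at 0 in the 3 Ly6C+ libraries and at 7.87, 3.40 and 1.31 in the Ly6C- libraries. The 2 called lower were Esam and Egfl7. The junction gene Esam stood at 35.4, 14.5 and 2.62 in Ly6C- libraries, and Egfl7, a secreted endothelial protein, at 27.6, 11.9 and 6.56. Replicate 3 was the lowest for both, as for Kdr. Both also fell from replicate 1 to 2, where Kdr did not. Ptprb and Pecam1, too low to test, had the order of Kdr on few reads. In the Ly6C- libraries Ptprb stood at 3.94, 9.36 and 1.31 (4, 11 and 1 reads). Pecam1 stood there at 3.94, 4.25 and 1.31 (4, 5 and 1 reads). The other measured markers of the list were not in that order. Replicate 3 was the lowest for some markers of other cell types too, among them Des (76.0), Krt18 (20.98) and Krt8 (6.56). Tek, Esam and Egfl7 passed the filter through the group in which they were high. The part of endothelial cells in the Kdr difference was not tested.

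Flt4, the lymphatic receptor gene, stood at 1.83, 0.752 and 0.773 in Ly6C+ libraries, from 5 reads in all, and at 13.8, 5.10 and 14.4 in Ly6C- libraries, from 31 reads. The groups were 2.79-fold apart at their nearest values, and the Ly6C- mean was 9.93 times the Ly6C+ mean (log2 fold change -2.44 ± 0.56, SE; adjusted p by limma = 0.0112). Lymphatic endothelial cells carry PDPN, the marker of the gate. Of their list 2 of 8 genes were measured, and they summed to 0 to 0.610 in Ly6C+ and 4.25 to 17.0 in Ly6C- libraries. The markers Prox1, Ccl21a, Mmrn1, Stab2, Nts and Sox18 were not measured. Lyve1, a hyaluronan receptor of lymphatic vessels, was at 0 in the 3 Ly6C+ libraries and at 8.86, 3.40 and 15.7 in the Ly6C- libraries. Replicate 2 was the lowest as for Flt4, but on few reads (9, 4 and 12 for Lyve1, and 14, 6 and 11 for Flt4). It was also the lowest for Krt19, an epithelial marker. The part of lymphatic cells in the Flt4 difference was not tested.

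**Figure D3:**
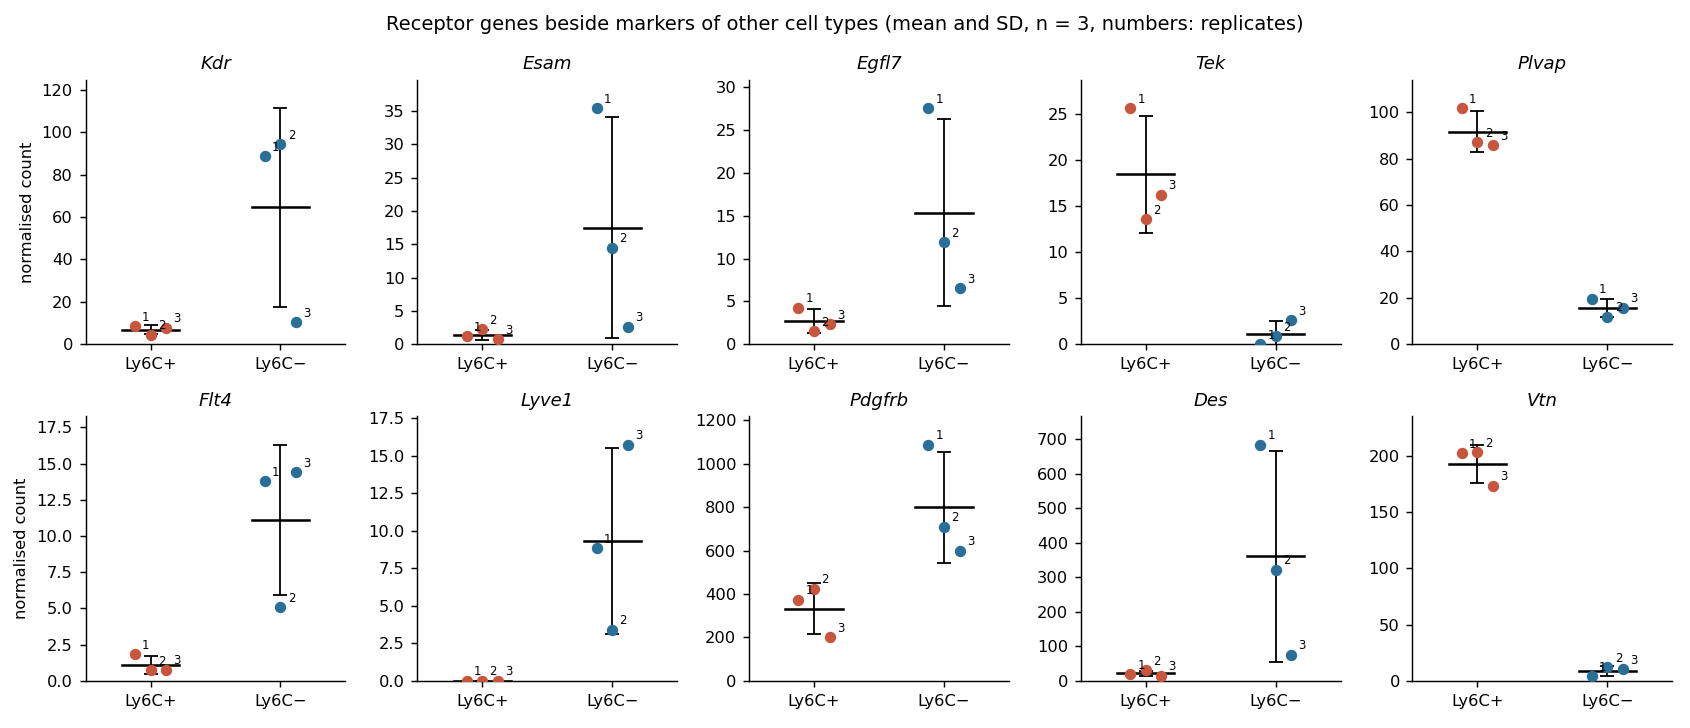
Normalised count (vertical axes, from 0) of Kdr, Flt4 and Pdgfrb beside markers of blood endothelium (Esam, Egfl7, Tek, Plvap), lymphatic endothelium (Lyve1) and pericytes and smooth muscle (Des, Vtn) in each library, with replicate numbers, means and SD. Ly6C- replicate 3 is the lowest Ly6C- library for Kdr, Esam, Egfl7, Pdgfrb and Des, and Ly6C- replicate 2 for Flt4, Lyve1 and Plvap. Tek, Plvap and Vtn are higher in the Ly6C+ libraries.

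Among the other genes of both families, Vegfd and Pgf differed in opposite directions. Of 7 such genes, 6 were tested, of which 1 was called higher and 2 lower in Ly6C+ pCAFs and 3 were not called, with a median log2 fold change of -0.73. The share called over all tested genes was 17.1%. Vegfd, the other lymphatic VEGF ligand gene, measured 898, 920.0 and 1062 in the Ly6C+ libraries and 42.3, 65.5 and 56.4 in the Ly6C- libraries, which makes a 17.5-fold excess in the Ly6C+ group (log2 fold change 4.13 ± 0.19, SE; adjusted p by limma = 3.63e-07). Pgf, which encodes placental growth factor, went the other way, at 50.6, 51.1 and 39.4 against 416, 319 and 678, a 10.01-fold excess in the Ly6C- group (adjusted p by limma = 1.04e-05). The co-receptor gene Nrp2, which binds VEGF-C and semaphorins, exceeded its Ly6C+ level 2.92-fold in the Ly6C- group (42.2 ± 4.79 against 123 ± 21.6; n = 3 each; adjusted p by limma = 0.000390). Its paralog Nrp1 (log2 fold change 0.31), Flt1 (-0.95) and the receptor-like gene Pdgfrl (-0.51) were not called.

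**Figure D4:**
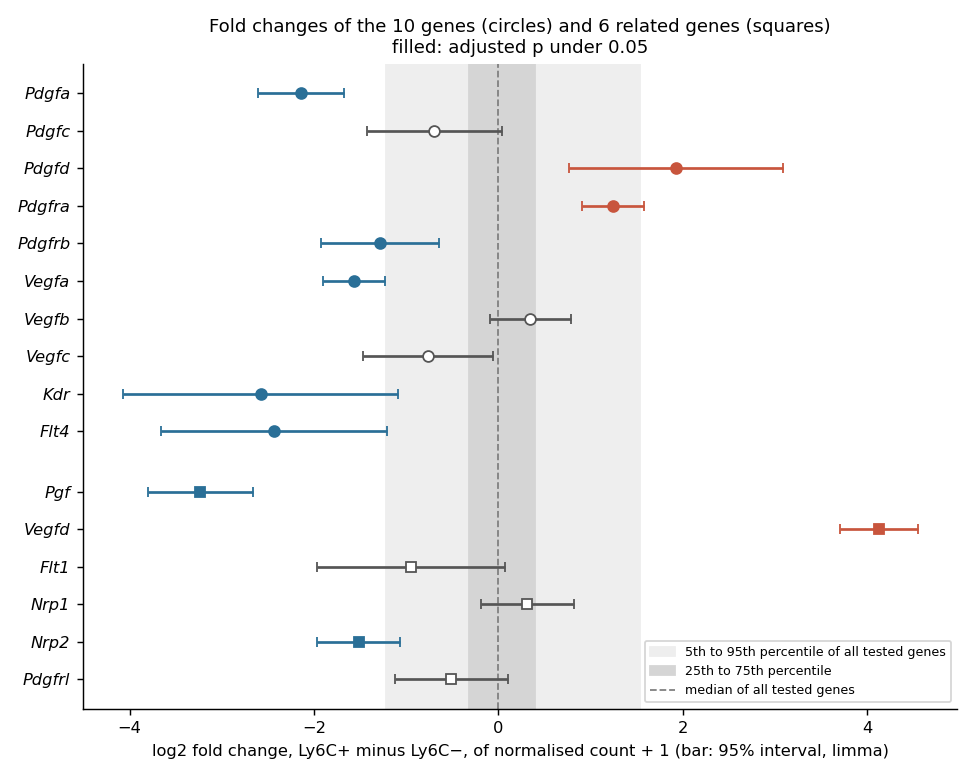
Log2 fold change (horizontal axis, Ly6C+ minus Ly6C-) with 95% intervals from limma for the 10 genes (circles) and 6 tested relatives (squares), over bands for the percentiles of all tested genes. Filled marks passed the test, with Vegfd at 4.13 and Pgf at -3.23 at the ends.

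Genes that process, release or bind these ligands went both ways. Of 24 in the list, 22 were tested, 4 were called higher, 5 lower and 13 not called, with a median of 0.13. Over all tested genes 9.41% were called higher and 7.66% lower. Pcsk6, a proprotein convertase, had 22.3 times the Ly6C- level in Ly6C+ pCAFs (178 ± 59.4 against 7.98 ± 3.77; n = 3 each; adjusted p by limma = 1.26e-05), and Adamts1, a protease that binds VEGF-A, was 3.49-fold higher. Mmp9, the gelatinase that frees matrix-bound VEGF-A, had 12.8 times the Ly6C+ level in Ly6C- pCAFs (38.8 ± 9.71 against 497 ± 49.4), and the heparan sulphate proteoglycan gene Gpc1 was 2.39-fold higher there. Plat, the gene of the PDGF-CC activator tPA, had 1.85 times the Ly6C- level in Ly6C+ pCAFs (2054 ± 483 against 1113 ± 213; adjusted p by limma = 0.0138) and is named after its values were seen. That call ended under scaling to library totals and quantile normalisation (0.0507 and 0.0756).

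Genes of the shared signalling machinery are given beside the 17.1% called over all genes. Of 35 signal transduction genes, 25 were tested, 1 was called higher, 2 lower and 22 not called, with a median of -0.05. The kinase gene Fyn was 2.85-fold higher in Ly6C+ pCAFs, and the adaptor gene Nck2 and the kinase gene Map2k1, which encodes MEK1, had 2.95 and 1.89 times their Ly6C+ level in the Ly6C- group. The Map2k1 call ended when Ly6C+ replicate 1, Ly6C+ replicate 3 or Ly6C- replicate 3 was left out (adjusted p by limma = 0.134, 0.0534 and 0.0749).

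Feedback inhibitors of receptor signalling included 3 genes called lower and 1 higher among 12 tested of 18, with 8 not called and a median of -0.38. Over all tested genes 17.1% were called. Dusp4, a phosphatase that switches off MAP kinases and is itself induced by them, measured 0, 3.01 and 1.55 in the Ly6C+ libraries and 49.2, 36.6 and 56.4 in the Ly6C- libraries (log2 fold change -4.46 ± 0.50, SE; adjusted p by limma = 0.000106). Dusp4 had 6 reads in Ly6C+ and 136 in Ly6C- libraries and passed the filter through the Ly6C- group. The ratio of the Dusp4 means was 31.2 with all libraries and 61.3 without Ly6C+ replicate 2. Dusp6, the ERK phosphatase, had 3.20 times the Ly6C+ level in Ly6C- pCAFs (22.3 ± 2.50 against 71.4 ± 26.4; n = 3 each; adjusted p by limma = 0.00257). Spry1, an inhibitor of receptor tyrosine kinase signalling, was 1.60-fold higher there (adjusted p by limma = 0.0466), a call that ended in 8 of 18 alternatives, including each of the 6 that left out a library (0.0567 to 0.159). Ptpn2, a tyrosine phosphatase, rose 1.97-fold from Ly6C- to Ly6C+ pCAFs, and its call ended without Ly6C+ replicate 3 or Ly6C- replicate 2 (adjusted p by limma = 0.0597 and 0.0570).

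Vegfa is a known hypoxia-induced gene, and the oxygen-sensing list is given beside it. Of 27 genes, 25 were tested, 3 were called higher, 6 lower and 16 not called, with a median of -0.38. The shares over all tested genes were 9.41% higher and 7.66% lower. Egln3, an oxygen-dependent prolyl hydroxylase gene, measured 4.27, 9.02 and 10.8 in the Ly6C+ libraries and 63.0, 45.9 and 47.2 in the Ly6C- libraries. Car9, carbonic anhydrase 9, was also lower in Ly6C+ pCAFs (5.53 ± 1.93 against 51.3 ± 40.0; n = 3 each; adjusted p by limma = 0.00185). Its Ly6C- values were 97.4, 26.4 and 30.2, and the 9.28-fold difference was 5.11-fold without Ly6C- replicate 1 (adjusted p by limma = 0.00220). Epas1, which encodes HIF-2 alpha, and the vasodilator gene Adm had 3.40 and 4.75 times their Ly6C- level in the Ly6C+ group, opposite to Vegfa. The part of oxygen supply in the Vegfa difference was not tested.

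**Figure D5:**
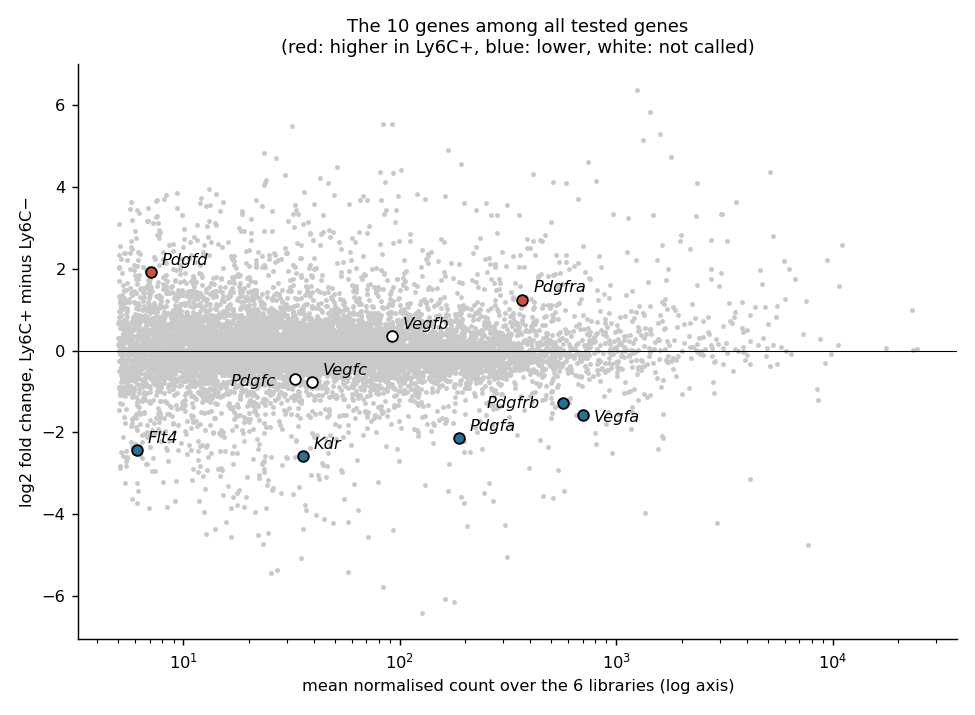
Log2 fold change (vertical axis, Ly6C+ minus Ly6C-) against the mean normalised count over the 6 libraries (horizontal log axis) for all 9646 tested genes in grey, with the 10 genes marked (red higher in Ly6C+, blue lower, white not called). Flt4 and Pdgfd lie near the lower limit of the tested range, at means of 6.11 and 7.05.

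For 3 of the genes, the tested genes outside the 10 with the most similar profile are given as a description, measured by the root mean square difference of centred log2 values over the 6 libraries. Nearest to Pdgfra were Oas2 (0.085), Adamtsl1 (0.098) and Nfib (0.106). Nearest to Pdgfrb were Slfn2 (0.155), Stard13 (0.161) and Gm12250 (0.185), and nearest to Vegfa were Sh3rf1 (0.087), Cib2 (0.104) and Stmn4 (0.105). With 6 libraries in 2 groups, any gene with a like difference between the groups and little spread lies near by this measure.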

How the data were processed

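The values the authors deposited are a signal in units of normalised counts: gene reads over a size factor specific to the library. The submitters' processing notes list mm10 as the build, with HTSeq, STAR 2.4.2a and bcl2fastq as tools. Not given in the sources used here are the annotation, strand handling, molecular tags and the source of the size factors. All values (100%) were whole multiples of 1 step per library within a tolerance of 0.001, so whole reads were recovered.

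Groups came from the sample titles. Genes with a mean of at least 5 (9646 of 12235) were tested with limma 3.58.1 (R 4.3.3, mean-variance trend, no block) on log2(value + 1), with Benjamini-Hochberg adjustment over all of them and a threshold of 0.05. Ratios between genes were tested by exact permutation. Folds are ratios of group means, and intervals are 95% intervals. Low-read genes carry counting error that only depth reduces. Fold changes on the log2(value + 1) scale understate low genes. Alternatives included edgeR 4.0.16 and DESeq2 1.42.0 on recovered reads. Thinning to equal reads was chosen after seeing the data. The pipeline was tested on simulated data. GENCODE M21 gave gene positions (98.6% of symbols matched) and RefSeq the promoters.

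The 10 genes and all lists were chosen with earlier results of these data known. All 10 were named, with up to 4 called genes of smallest p per list, and for the marker lists the most abundant genes and those at 0. Further marker genes (Esam, Egfl7, Cldn5, Pecam1, Tek, Des, Rgs5, Vtn, Kcnj8, Dcn, Lum, S100a4, Col1a1, Thy1, Fap, Krt8, Krt14, Cdh1) were picked after their values were seen. So were Ptprb, Myh11, Mcam, Notch3, Krt7, Cldn3, Cldn4 and Cldn7.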

Additional observations from a re-analysis of the deposited data

How the results depend on the processing

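The directions of the 10 genes, the 6 tested relatives and the 16 other called list genes that were named did not change under any of the alternatives run. Pdgfa, Pdgfra, Pdgfrb, Vegfa and Flt4 were called in every alternative that gave them a value, and Pdgfc and Vegfb in none. Vegfc was called in 1 of 18 (edgeR with the replicate block, adjusted p = 0.0431). Of the 10 genes, the number called higher was 1 with a minimum mean of 20, because Pdgfd was then not tested, 1 after thinning, and 1 to 2 when a library was left out (2 only without Ly6C- replicate 3). The number called lower was 4 to 6 over all alternatives. Over all genes, 1121 to 2112 were called. Calls of feedback genes numbered 2 to 4 and of oxygen-sensing genes 5 to 10 when a library was left out, against 4 and 9 with all libraries; the 2 calls were without Ly6C+ replicate 3 or Ly6C- replicate 2, and the 5 without Ly6C+ replicate 1. Pdgfrl was called in 1 alternative, without Ly6C+ replicate 2 (adjusted p = 0.0493).

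Same-numbered libraries of the groups deviated together only weakly (r = 0.129, 0.052 and 0.167 across genes), each library correlating best with its own number, and the labels do not tie the numbers to a mouse or batch, so they were not taken as pairs. With the replicate number as a block, limma called 2088 genes, 14 ligand-processing and 13 oxygen-sensing genes, against 1647, 9 and 9 without it. edgeR called 16 ligand-processing and 14 oxygen-sensing genes with the block and 10 and 9 without it. The block left 2 of the 10 genes called higher and 5 lower in limma. The log2 ratios between genes could not pass the test in any setting, as the smallest exact p is 0.1, or 0.25 over 3 pairs. Depth limits Pdgfd, Flt4 and Pdgfb most, with 56, 36 and 8 reads over the 6 libraries.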

Other observations

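The balance of the VEGF ligand genes Vegfd and Vegfa was examined after their values were seen and carries no test. The log2 ratio of Vegfd to Vegfa was 1.48, 1.34 and 1.48 in the Ly6C+ libraries and -4.70, -3.96 and -4.12 in the Ly6C- libraries, a 51.7-fold change of the ratio. VEGF-D acts mainly on lymphatic vessels and VEGF-A mainly on blood vessels.

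Keratin genes of the epithelial marker list were also uneven among the Ly6C- libraries. Krt18 stood at 183, 97.8 and 20.98 and Krt8 at 81.7, 34.03 and 6.56 in Ly6C- replicates 1, 2 and 3. Krt7 stood there at 33.5, 12.8 and 1.31. Krt19 stood at 57.1, 24.7 and 53.8 and Krt14 at 25.6, 40.8 and 26.2. Cdh1, the epithelial cadherin gene, was at or below 1.97 in every library.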
